A study of Mus musculus with 8 samples.

Results

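Amino acid catabolism and the urea cycle were described across 8 mouse livers through 50 genes, each chosen by its symbol from a list of enzymes and mitochondrial carriers of these pathways. All 50 were among the 14506 genes of the table, and all 50 had a mean normalized read count of at least 10 and were tested, with 11174 genes tested in all. Livers came from 4 *Rragc*+/+ mice and 4 *Rragc*S74N/+ mice. *Rragc* encodes RagC, a GTPase that relays nutrient levels, those of amino acids included, to the growth-promoting complex mTORC1. S74N is a knock-in substitution of serine by asparagine at residue 74, made by CRISPR editing, that holds RagC in an active, GDP-like state. Mutant mice carried the substitution on 1 allele in every cell of the body, and mice homozygous for it are not viable. All mice were fed chow. The livers were whole tissue, so that hepatocytes and other cells were read together. In such bulk tissue, fewer cells of a type and less RNA per cell cannot be told apart. Mice were 3 months old for *Rragc*+/+ livers 1, 2 and 3 and *Rragc*S74N/+ livers 1 and 2, 2.5 months old for *Rragc*+/+ liver 4 and *Rragc*S74N/+ liver 3, and 2 months old for *Rragc*S74N/+ liver 4. Throughout, livers are given in the order 1 to 4 within a genotype, and the numbers only name livers.

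The liver takes up amino acids from the portal blood, removes their nitrogen by transamination and deamination, and burns or converts the carbon skeletons. Free ammonia and the nitrogen of aspartate enter the urea cycle, which is split between the mitochondria and the cytosol of periportal hepatocytes. Many of these enzymes, such as tyrosine aminotransferase and serine dehydratase, are known to be induced at the level of transcription by glucagon, glucocorticoids and fasting, while mTORC1 is known to respond to the supply of amino acids.

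Promoter sequence is shown for 4 genes, *Tat*, *Got1*, *Aass* and *Mccc2*. Each had an entry in the promoter table and the largest absolute log2 fold change of its pathway group. Each run gives the 250 bases before the RefSeq start of transcription, 5′ to 3′ on the strand of the gene, from build GRCm38.p6. They lie at chr8:109990186-109990435, plus strand for *Tat*, chr19:43524606-43524855, minus strand for *Got1*, chr6:23132987-23133236, minus strand for *Aass* and chr13:100015640-100015889, minus strand for *Mccc2*. Capitals mark matches to the motifs searched. Of 50 genes, 41 had an entry, and *Sds*, *Cps1*, *Gls2* and *Kynu* did not.
Tat: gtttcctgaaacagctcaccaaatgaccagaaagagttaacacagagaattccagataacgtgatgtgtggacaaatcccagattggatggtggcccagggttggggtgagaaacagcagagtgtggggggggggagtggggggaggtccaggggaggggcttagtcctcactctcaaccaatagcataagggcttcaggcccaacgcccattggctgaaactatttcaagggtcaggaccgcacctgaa
Got1: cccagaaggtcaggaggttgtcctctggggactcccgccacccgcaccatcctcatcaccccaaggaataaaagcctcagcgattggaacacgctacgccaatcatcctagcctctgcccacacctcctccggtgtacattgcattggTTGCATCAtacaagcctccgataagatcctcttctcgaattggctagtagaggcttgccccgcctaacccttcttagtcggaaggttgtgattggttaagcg
Aass: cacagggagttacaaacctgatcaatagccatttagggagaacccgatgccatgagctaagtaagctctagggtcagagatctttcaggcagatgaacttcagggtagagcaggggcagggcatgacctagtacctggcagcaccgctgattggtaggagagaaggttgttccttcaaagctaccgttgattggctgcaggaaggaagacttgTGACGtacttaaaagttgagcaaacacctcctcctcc
Mccc2: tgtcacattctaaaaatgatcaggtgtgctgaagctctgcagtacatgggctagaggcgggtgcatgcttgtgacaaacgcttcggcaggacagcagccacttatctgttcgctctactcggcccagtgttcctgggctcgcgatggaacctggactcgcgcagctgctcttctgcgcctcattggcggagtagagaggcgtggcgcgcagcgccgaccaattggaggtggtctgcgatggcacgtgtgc

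In *Got1* the capitals are a match to TGATGCAA, the composite C/EBP-ATF motif, which lay on the opposite strand at 102 to 95 bases before the start. This motif was in 0.791% of the 32851 windows of this length and in 1 of the 41 genes. In *Aass* the capitals are TGACG, which is one arm of the cyclic AMP response element, at 37 to 33 bases before the start. TGACG was in 17.8% of all windows and in 5 of 41 genes (12.2%), *Aass*, *Csad*, *Ftcd*, *Pcca* and *Slc25a13*. On both strands, TGTTCT, one arm of the glucocorticoid response element, was in 4 of 41 genes against 16.1% of all windows. The forkhead motif TGTTTAC was in 1 gene, *Hibadh*, against 3.17% of windows, the C/EBP palindrome TTGCGCAA in 0 genes against 0.164%, and TATAAA in 6 genes against 12.4%. A match describes the letters of the window and not a bound site.

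Genotype was the question of the comparison, which asked whether livers with an activated RagC differed from control livers in the messenger RNAs of amino acid breakdown. None of the 50 genes passed the limma test at an adjusted p of 0.05, where 1 of 11174 genes (0.00895%) did. The smallest adjusted p among the 50 genes was 0.846, and edgeR and DESeq2 on the whole reads also called 0 of them, with smallest adjusted p of 0.812 and 0.390. At an unadjusted p under 0.05 limma gave 3 genes higher in *Rragc*S74N/+ livers (6.0%), *Sds*, *Got1* and *Mccc2*, against 2.37% of all tested genes, and 0 genes lower against 2.80%. edgeR gave 7 such genes and DESeq2 6, all of them higher, against 3.11% and 3.44% of all tested genes in that direction. The limma count in either direction was 3 of 50 (6.0%) with all livers, where 5.17% of all tested genes passed. It was 1 without *Rragc*+/+ liver 1 (3.0% of all tested genes), 5 without *Rragc*+/+ liver 3 or *Rragc*S74N/+ liver 2 (6.79% and 4.88% of all), and 11 without *Rragc*S74N/+ liver 3 (15.1% of all), of which 10 were higher and 1 was lower. Over the whole table, too, these counts moved with the liver left out. A single gene, *Mccc2*, did not overlap between the genotypes and was higher in the mutant (1.30% of all tested genes did so), and 0 genes did not overlap and were lower (1.64% of all).

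Log2 fold changes of the mutant over the control ranged from -0.44 for *Ftcd* to 2.64 for *Sds*, with a median of 0.12 against 0.012 over all tested genes. They were above 0 for 34 genes and below 0 for 16, so that 68.0% were above 0 against 51.3% of all genes. A log2 fold change above 0.5 was found for 10 genes (20% against 13.3%) and one below −0.5 for 0 (against 9.46%). Most of this shift rested on the 2-month-old *Rragc*S74N/+ liver 4. Without it the median was 0.0018 against 0.018 over all tested genes, and 25 of 50 genes (50%) lay above 0 against 52.2%. In that fit 2 of the 50 genes, both higher in the mutant, had an unadjusted limma p under 0.05, against 2.82% of all tested genes in either direction.

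**Figure D1:**
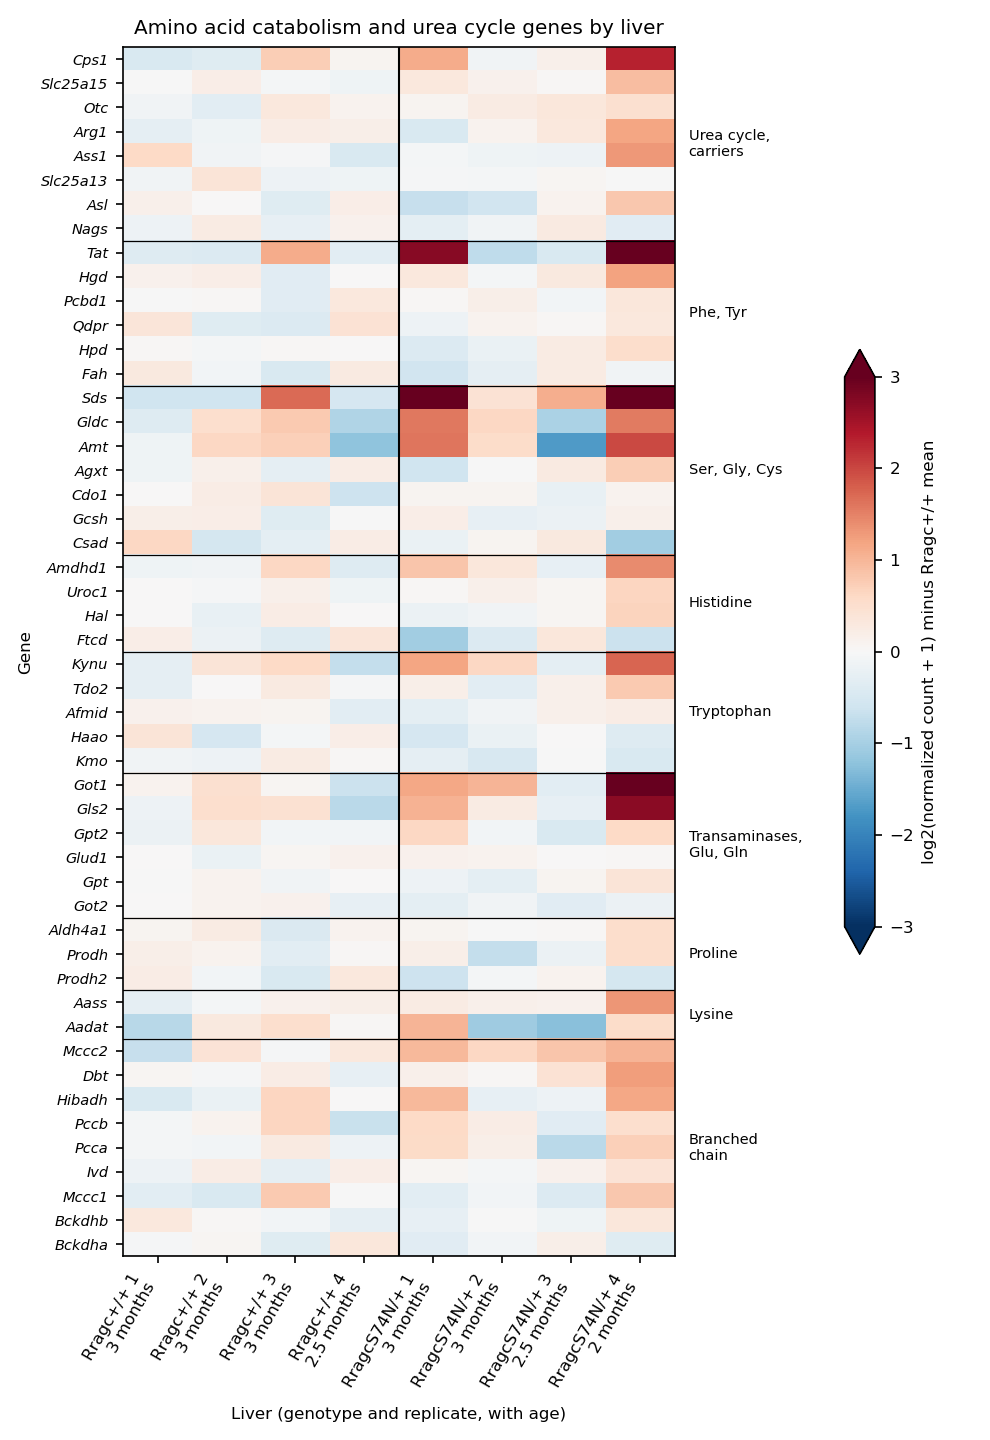
Level of each of the 50 genes (rows, by pathway) in each of the 8 livers (columns), as log2(normalized count + 1) minus the mean of the 4 *Rragc*+/+ livers, with the colour scale ending at −3 and 3. *Rragc*S74N/+ liver 4 was the highest of the 8 livers for 32 of 50 genes.

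*Rragc*S74N/+ liver 4 stood apart from the other 7 in this pathway. It was the highest liver for 32 of the 50 genes (64.0%), where it was the highest for 17% of all tested genes, and the other livers were highest for 0 to 5 genes each. Reads of the 50 genes made up 1.61%, 1.43%, 1.44% and 1.54% of all reads in *Rragc*+/+ livers and 1.43%, 1.47%, 1.65% and 2.32% in *Rragc*S74N/+ livers. The mean log2 level of the 50 genes was 9.46, 9.54, 9.64 and 9.43 in *Rragc*+/+ livers (9.52 ± 0.093, SD, n = 4) and 9.80, 9.50, 9.47 and 10.33 in *Rragc*S74N/+ livers (9.77 ± 0.40, SD, n = 4). The genotypes overlapped, with *Rragc*S74N/+ livers 2 and 3 inside the control range, and the difference of the means was 0.26 with all livers and 0.072 without *Rragc*S74N/+ liver 4. In 5 genes, *Sds*, *Got1*, *Gls2*, *Cps1* and *Aass*, that liver exceeded the next highest liver by a factor of over 2 (10% against 0.779% of all tested genes).

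Some other measures stood apart in this liver and some did not. It was the youngest, and none of the 4 controls had its age, so that age and genotype cannot be told apart in it. It held 6632108 counted reads, the most of the 8, which ranged from 4313076. The 10 genes of a male-biased liver list, all tested and none listed at 0, summed to 159541 to 220827 normalized counts in *Rragc*+/+ livers and 77688 to 171035 in *Rragc*S74N/+ livers, with the lowest sum in liver 4. Their mean log2 level was 11.65 to 11.77 in controls, 11.38, 10.995 and 11.34 in mutant livers 1 to 3 and 8.89 in liver 4, so that the genotypes did not overlap. The difference was -1.03, and -0.45 without liver 4. Within that list 0 of the 10 genes had a higher mean log2 level in the mutant, and in 1 alone, *Elovl3*, the genotypes did not overlap. *Elovl3*, a fatty acid elongase, read 5978, 5445, 4105 and 4326 in *Rragc*+/+ livers and 2566, 3709, 2544 and 102 in *Rragc*S74N/+ livers. *Cyp4a12a* of the same list read 5127, 3829, 4189 and 4697 in *Rragc*+/+ livers and 4122, 7684, 4671 and 1476 in *Rragc*S74N/+ livers. Of 11 genes of a female-biased list, 2 were in the table and 1 was tested, the transcription factor gene *Cux2*, which read 9.32, 2.81, 0.00 and 3.74 in *Rragc*+/+ livers and 0.00, 0.889, 5.57 and 78.3 in *Rragc*S74N/+ livers, again apart in liver 4. The sex of these mice was not given in the sources used here, and the Y-linked gene *Ddx3y*, looked up after the other values were seen, read 433, 407, 533 and 315 in *Rragc*+/+ livers and 443, 447, 420.1 and 420.1 in *Rragc*S74N/+ livers. Messenger RNA of this Y-linked gene was thus present in every liver, mutant liver 4 included, with at least 337 whole reads in each. Markers of periportal hepatocytes had a mean log2 level of 9.04 to 9.58 in controls, 9.49 to 9.76 in mutant livers 1 to 3 and 10.20 in liver 4, while their summed count was lowest in liver 4 at 20475. Pericentral markers had a mean log2 level of 8.96 to 9.46 in controls, 9.08 to 9.15 in mutant livers 1 to 3 and 8.66 in liver 4. Hepatocyte markers summed to 351590 to 498887 in controls and 382182 to 616727 in mutant livers, again with the highest sum in liver 4. Kupffer cell markers, 10 of 10 tested, summed to 3029 to 4771 in controls and 3056 to 5069 in mutant livers, with 3393 in liver 4. Their mean log2 level, 7.42 to 7.57 in controls and 7.57 to 8.29 in mutant livers, did not overlap by a narrow margin. It was 7.91 in liver 4. Of the 10 genes, 7 had a higher mean log2 level in the mutant, and in 1 alone, *Marco*, the genotypes did not overlap. *Marco* read 20.5, 22.4, 25.5 and 20.6 in *Rragc*+/+ livers and 79.0, 113.8, 37.9 and 124.8 in *Rragc*S74N/+ livers. The part of these measures in the levels below was not tested. *Rragc* itself read 77.4, 83.2, 63.7 and 112 in *Rragc*+/+ livers and 71.6, 69.3, 84.7 and 80.8 in *Rragc*S74N/+ livers, a difference of -0.11 ± 0.25 (log2 fold change ± SE), and a read count over both alleles does not check the edit.

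Urea cycle genes were led in fold change by *Cps1* (ENSMUSG00000025991.8, chr1:67123026-67231259 on the plus strand), which encodes the mitochondrial carbamoyl phosphate synthetase that takes in ammonia. In normalized read counts, which are reads divided by a scale factor for each liver, *Cps1* read 1024, 1083, 2317 and 1490.2 in *Rragc*+/+ livers and 3006, 1306, 1542 and 6977 in *Rragc*S74N/+ livers. Mutant livers 1 and 4 lay above all controls, and mutant livers 2 and 3 lay among them. The log2 fold change was 0.87 ± 0.45 (SE, unadjusted limma p = 0.0752, exact permutation p = 0.200) and 0.38 without mutant liver 4. *Ass1*, argininosuccinate synthase, joins citrulline with aspartate and had the highest mean of the group, reading 9378, 5719, 6083 and 4524 in *Rragc*+/+ livers and 5962, 5637, 5602 and 15191 in *Rragc*S74N/+ livers. Mutant livers 1 to 3 differed little from each other and lay inside the control range, and only liver 4 lay above it. Its log2 fold change of 0.24 ± 0.33 turned to -0.11 without that liver. *Arg1*, the arginase that releases urea, read 4773, 5278, 6749 and 6474 in *Rragc*+/+ livers and 4173, 6164, 7119 and 13158 in *Rragc*S74N/+ livers, and its value likewise moved from 0.28 ± 0.30 to -0.021. *Asl*, which splits argininosuccinate, had a log2 fold change of -0.079 ± 0.30 and of -0.38 without liver 4. *Otc*, the ornithine transcarbamylase of the mitochondria, differed by 0.29 ± 0.20 and *Slc25a15*, the ornithine carrier, by 0.36 ± 0.22. The carrier gene *Slc25a13*, which exports aspartate from the mitochondria, differed by -0.013 ± 0.19, and *Nags*, whose product makes the activator of carbamoyl phosphate synthetase, by -0.11 ± 0.21. Thus 6 of the 8 genes were highest in mutant liver 4, while *Nags* was lowest there, and the group mean was 10.43 to 10.53 in controls, 10.42 to 10.62 in mutant livers 1 to 3 and 11.31 in mutant liver 4.

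*Sds* showed the largest fold change of all 50 genes. It encodes serine dehydratase, which turns serine into pyruvate and ammonia, and lies at chr5:120476526-120483932 on the plus strand (ENSMUSG00000029597.14). *Sds* read 14.0, 14.0, 72.1 and 14.9 in *Rragc*+/+ livers and 299, 29.3, 46.8 and 919 in *Rragc*S74N/+ livers. Mutant livers 1 and 4 lay far above every control, and mutant livers 2 and 3 lay above 3 of the 4 controls but below *Rragc*+/+ liver 3. The log2 fold change was 2.64 ± 0.90 (limma p = 0.0118 unadjusted, 95% interval 0.69 to 4.59), and an exact two-sided permutation test over 70 labellings gave p = 0.0857, where the smallest possible was 0.0286. Leaving out *Rragc*S74N/+ liver 4 gave 1.74 and the 3-month-old mice alone 1.91. Its unadjusted p stayed under 0.05 in 20 of 20 alternatives, and its adjusted p ranged from 0.256 to 0.9999 over them.

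Among the other genes of serine, glycine and cysteine, *Gldc* and *Amt* encode the P and T proteins of the mitochondrial glycine cleavage system. *Amt* read 69.0, 117, 123 and 31.8 in *Rragc*+/+ livers and 232, 111, 22.3 and 300.2 in *Rragc*S74N/+ livers. *Gldc* read 55.0, 103, 126 and 38.3 in *Rragc*+/+ livers and 220.3, 112, 36.8 and 215 in *Rragc*S74N/+ livers. Both genes were lowest in the 2.5-month-old livers, 1 of each genotype, and highest in mutant livers 1 and 4, and they differed between genotypes by 0.61 ± 0.67 and 0.70 ± 0.53 on the log2 scale. *Gcsh*, the H protein of the same complex, read 655, 666, 449.8 and 580.2 in *Rragc*+/+ livers and 664, 489, 511 and 644 in *Rragc*S74N/+ livers, with a difference of -0.023 ± 0.20. *Csad*, cysteine sulfinate decarboxylase of the taurine pathway, had the highest mean of the 50 genes and read 14013, 6359, 7463 and 10613 in *Rragc*+/+ livers and 8044, 9696, 11218 and 4419 in *Rragc*S74N/+ livers. It was lowest in mutant liver 4, with a log2 fold change of -0.22 ± 0.32 and of 0.061 without that liver. *Cdo1*, the cysteine dioxygenase upstream of it, differed by 0.0068 ± 0.24, and *Agxt*, the alanine-glyoxylate aminotransferase of peroxisomes, by 0.10 ± 0.26.

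Tyrosine and phenylalanine genes held *Tat*, tyrosine aminotransferase, which begins tyrosine breakdown and lies at chr8:109990437-109999803 on the plus strand (ENSMUSG00000001670.13). *Tat* read 101, 99.1, 284 and 107 in *Rragc*+/+ livers and 886, 77.3, 95.8 and 1519.8 in *Rragc*S74N/+ livers. The mutant livers lay on both sides of the controls, with livers 1 and 4 above all of them and livers 2 and 3 below all of them. The log2 fold change of 1.26 ± 0.81 (unadjusted limma p = 0.142, exact permutation p = 0.429) had a 95% interval of -0.48 to 3.00. The other genes of the pathway had smaller fold changes. *Hpd*, 4-hydroxyphenylpyruvate dioxygenase, had the highest mean of the group and read 6338, 5918, 6294 and 6181 in *Rragc*+/+ livers and 4666, 5376, 7349 and 8965 in *Rragc*S74N/+ livers, a difference of 0.045 ± 0.23 that became -0.30 in the 3-month-old mice. *Hgd*, homogentisate dioxygenase, differed by 0.44 ± 0.26 and by 0.19 without mutant liver 4, and *Fah*, the last enzyme of the pathway, by -0.18 ± 0.23. *Qdpr* and *Pcbd1*, which recycle the tetrahydrobiopterin cofactor of phenylalanine hydroxylase, differed by 0.076 ± 0.24 and 0.12 ± 0.20.

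**Figure D2:**
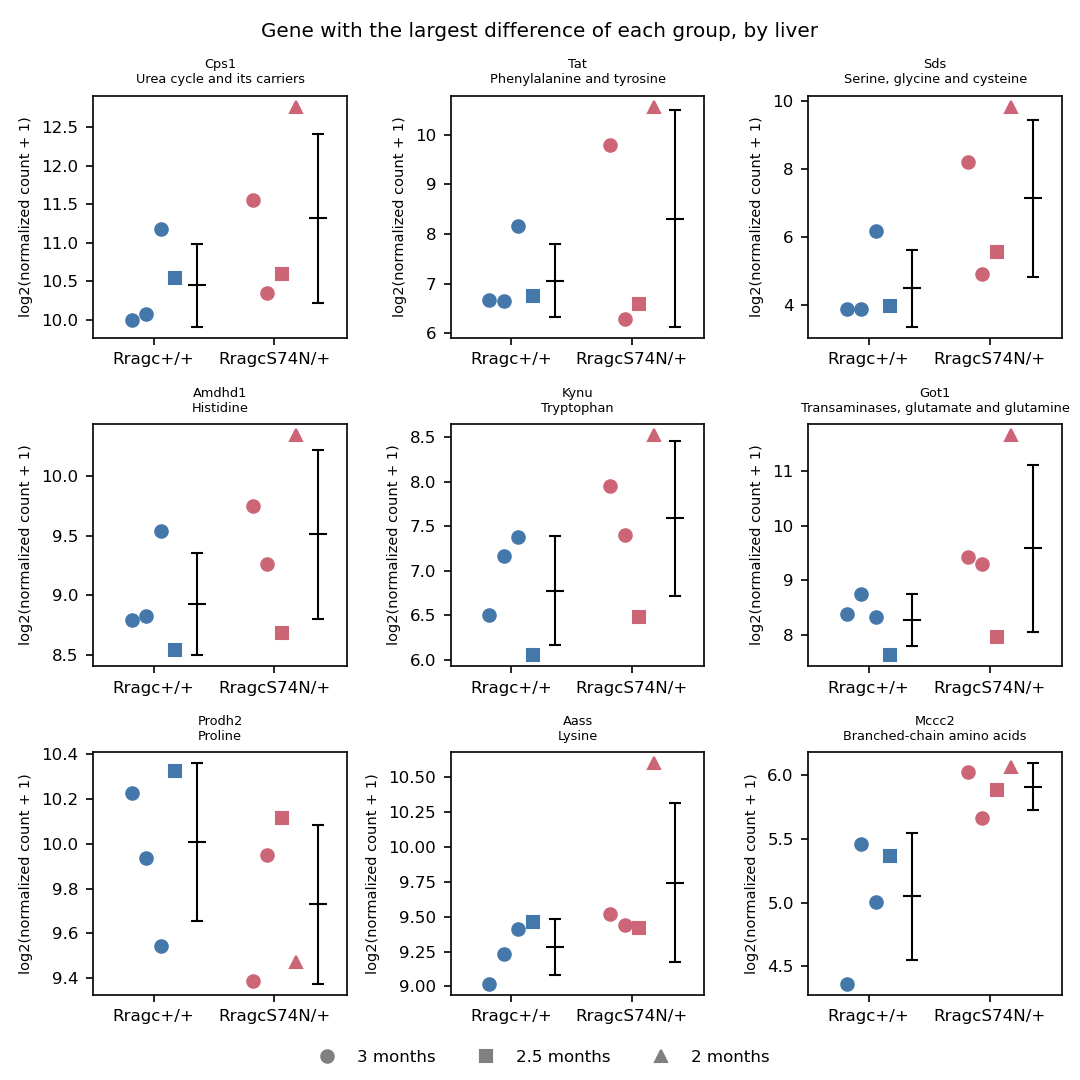
For the gene with the largest absolute log2 fold change of each of the 9 groups, log2(normalized count + 1) in each liver, with *Rragc*+/+ in blue, *Rragc*S74N/+ in red, the age as the symbol, and the mean ± SD (n = 4) as black bars. The red triangle, *Rragc*S74N/+ liver 4, is the highest point in 8 of the 9 panels, and *Mccc2* is the panel in which the genotypes do not overlap.

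Of the 6 aminotransferase and glutamate genes, 3 were highest in mutant liver 4, namely *Got1*, *Gls2* and *Gpt*. *Got1*, the cytosolic aspartate aminotransferase (chr19:43499752-43524605 on the minus strand, ENSMUSG00000025190.13), read 335, 431, 319.7 and 197 in *Rragc*+/+ livers and 688, 627, 249 and 3231 in *Rragc*S74N/+ livers. Mutant livers 1, 2 and 4 lay above all controls and mutant liver 3 lay between them. The log2 fold change was 1.31 ± 0.57 (limma p = 0.0389 unadjusted, exact permutation p = 0.114, 95% interval 0.078 to 2.54) and 0.62 without mutant liver 4. *Got2*, its mitochondrial counterpart with the highest mean of the group, read 3062, 3268, 3296 and 2556 in *Rragc*+/+ livers and 2489, 2829.8, 2409 and 2703 in *Rragc*S74N/+ livers. Its difference of -0.22 ± 0.18 was opposite in sign to that of *Got1*. *Gls2*, the liver glutaminase that frees ammonia from glutamine, was added after its values were seen and read 389, 609.8, 596 and 247 in *Rragc*+/+ livers and 887, 510.1, 366 and 2849.5 in *Rragc*S74N/+ livers. Liver 4 held 5.59 times the median of the other livers for *Gls2*, and the log2 fold change moved from 0.94 ± 0.52 to 0.34 without it. *Glud1*, glutamate dehydrogenase, read 2746, 2374, 2850.4 and 3014 in *Rragc*+/+ livers and 2994, 2928, 2768 and 2812 in *Rragc*S74N/+ livers, and had the smallest spread within genotypes of the 50 genes (SD 0.11 on the log2 scale). The alanine aminotransferase genes *Gpt* and *Gpt2* differed by 0.0068 ± 0.20 and 0.17 ± 0.26.

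The histidine pathway runs through histidase (*Hal*), urocanase (*Uroc1*), imidazolonepropionase (*Amdhd1*) and formimidoyltransferase cyclodeaminase (*Ftcd*). *Amdhd1* read 444, 454, 743 and 372 in *Rragc*+/+ livers and 859, 612, 411 and 1297 in *Rragc*S74N/+ livers, with a log2 fold change of 0.58 ± 0.33. *Ftcd*, the last step and the highest in mean level, read 8129, 6192, 5367 and 9141 in *Rragc*+/+ livers and 3403, 5294, 8852 and 4523 in *Rragc*S74N/+ livers. Its mutant livers 1, 2 and 4 lay below all controls and mutant liver 3 lay between them, and its log2 fold change of -0.44 ± 0.29 (unadjusted limma p = 0.146, exact permutation p = 0.200) was the lowest of the 50 genes. *Amdhd1* and *Ftcd* thus lay on opposite sides of 0 in 1 pathway, and neither passed the test. *Hal* and *Uroc1* differed by 0.12 ± 0.22 and 0.22 ± 0.19, with mutant liver 4 the highest for both.

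In tryptophan breakdown, *Kynu*, kynureninase, read 89.5, 143, 166 and 65.4 in *Rragc*+/+ livers and 247, 168, 88.0 and 367 in *Rragc*S74N/+ livers. Both 2.5-month-old livers were the lowest, and the log2 fold change was 0.81 ± 0.41 (unadjusted limma p = 0.0693, exact permutation p = 0.200) and 0.50 without mutant liver 4. *Haao*, the dioxygenase that opens the ring of 3-hydroxyanthranilate, read 5993, 3239, 4398 and 5313 in *Rragc*+/+ livers and 3245, 4029, 4630.2 and 3556 in *Rragc*S74N/+ livers, a difference of -0.27 ± 0.23. The entry enzyme *Tdo2* differed by 0.20 ± 0.24, *Afmid* by -0.0087 ± 0.20 and the monooxygenase *Kmo* by -0.31 ± 0.19. *Afmid* shares exon sequence on its own strand with another annotated gene, as do *Aldh4a1* and *Hibadh*, so their counts are uncertain.

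For proline, *Prodh2*, which oxidizes hydroxyproline, read 1199, 978, 745 and 1281 in *Rragc*+/+ livers and 669, 987, 1107 and 709 in *Rragc*S74N/+ livers, a difference of -0.28 ± 0.24. *Aldh4a1*, which completes the conversion of proline to glutamate, read 1761, 1960.2, 1221 and 1782 in *Rragc*+/+ livers and 1743, 1637, 1688 and 2395 in *Rragc*S74N/+ livers, a difference of 0.15 ± 0.21. The proline dehydrogenase gene *Prodh* differed by -0.045 ± 0.26. In this group the mean lay inside the control range for all mutant livers but liver 4, which exceeded the highest control only slightly, at 9.84 against 9.83. For lysine, *Aass*, the bifunctional enzyme that starts its breakdown, read 518, 601, 680.4 and 703 in *Rragc*+/+ livers and 733, 694, 683 and 1546 in *Rragc*S74N/+ livers. Mutant livers 1 to 3 were close together around the top of the control range, with liver 1 just above it, and liver 4 held 2.26 times the median of the other livers. Its log2 fold change was 0.46 ± 0.26 and 0.18 without liver 4, and that of *Aadat*, the aminoadipate aminotransferase, was -0.19 ± 0.48 and -0.44.

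*Mccc2* was the gene in which the genotypes did not overlap. It encodes the beta subunit of methylcrotonyl-CoA carboxylase, a step of leucine breakdown, and lies at chr13:99948530-100015639 on the minus strand (ENSMUSG00000021646.9). *Mccc2* read 19.6, 43.0, 31.1 and 40.2 in *Rragc*+/+ livers and 64.3, 49.8, 57.9 and 66.1 in *Rragc*S74N/+ livers. All mutant livers lay above all control livers. The log2 fold change was 0.86 ± 0.31 (limma p = 0.0159 unadjusted, adjusted p = 0.846, 95% interval 0.19 to 1.54), and the exact two-sided permutation p was 0.0286, the smallest that 70 labellings allow. It was 0.81 without mutant liver 4, 0.90 in the 3-month-old mice and 0.79 with age as a factor, a fit from whose estimate mutant liver 4 drops out. *Mccc2* had the lowest mean of the 50 genes, from 21 to 81 whole reads per liver, and its unadjusted p stayed under 0.05 in 17 of the 19 alternatives that gave a value, with adjusted p from 0.281 to 0.9999. The exceptions were the 3-month-old mice alone, with an unadjusted p of 0.0574, and the fit without *Rragc*+/+ liver 1, in which the log2 fold change was 0.63 and the unadjusted p 0.0559. Its partner *Mccc1*, the alpha subunit, read 46.6, 42.1, 100.4 and 57.9 in *Rragc*+/+ livers and 46.8, 55.1, 43.5 and 103 in *Rragc*S74N/+ livers, a difference of 0.0035 ± 0.35.

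The branched-chain ketoacid dehydrogenase, which commits leucine, isoleucine and valine to breakdown, is encoded by *Bckdha*, *Bckdhb* and *Dbt* for its E1 and E2 subunits. *Bckdha* had the highest mean of the branched-chain group and read 661, 705, 529 and 857 in *Rragc*+/+ livers and 537, 635, 766 and 523 in *Rragc*S74N/+ livers. Its difference was -0.16 ± 0.21, that of *Bckdhb* -0.012 ± 0.22 and that of *Dbt* 0.47 ± 0.28, which became 0.21 without mutant liver 4. *Ivd*, isovaleryl-CoA dehydrogenase, differed by 0.13 ± 0.20 and *Hibadh*, 3-hydroxyisobutyrate dehydrogenase of valine breakdown, by 0.43 ± 0.34. The propionyl-CoA carboxylase genes *Pcca* and *Pccb* differed by 0.17 ± 0.32 and 0.24 ± 0.29.

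**Figure D3:**
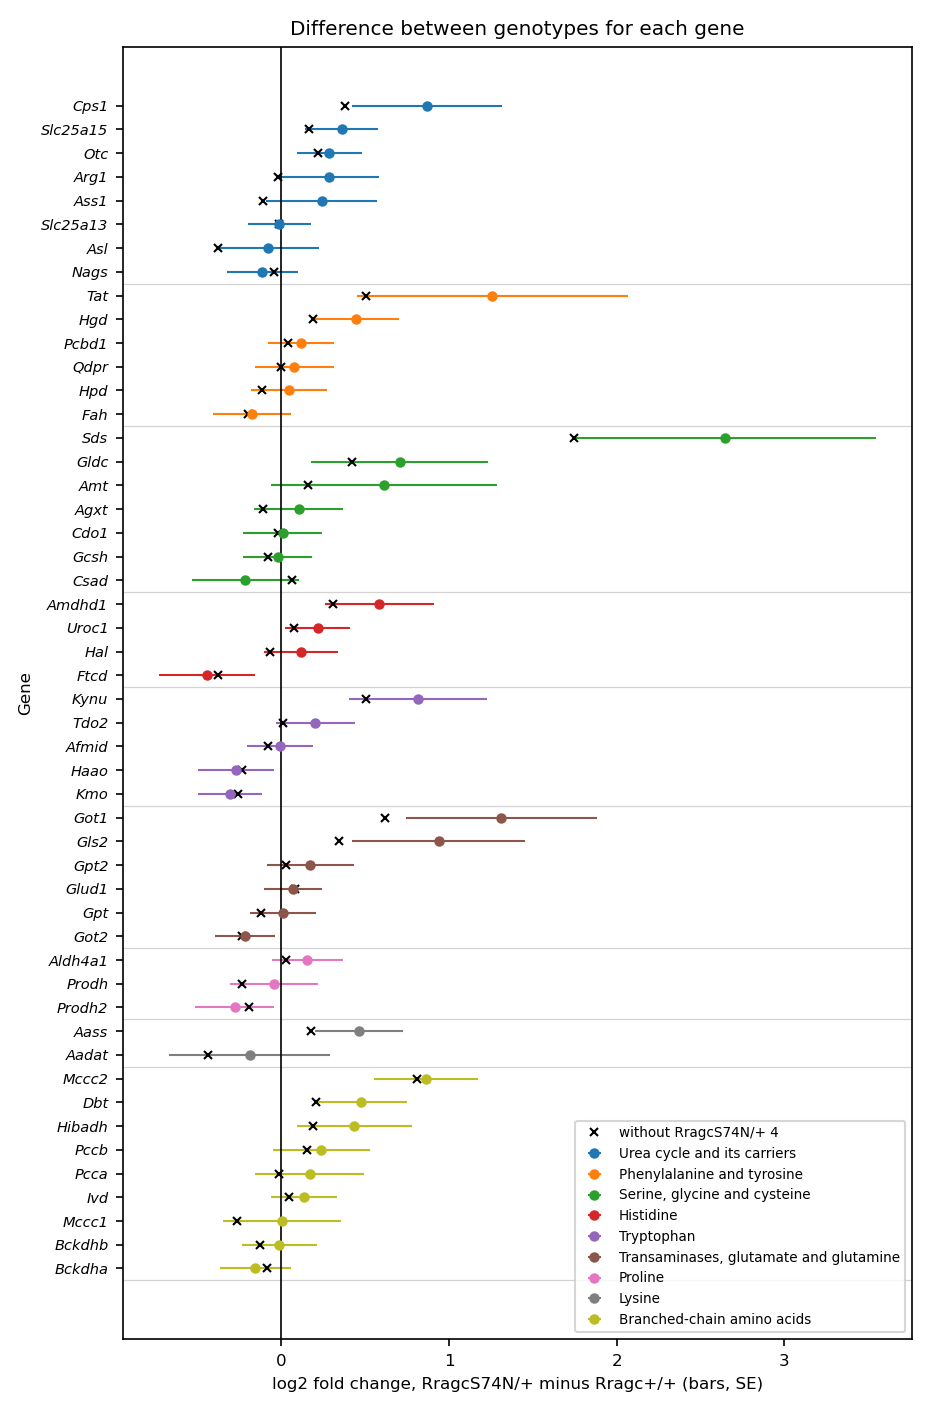
Log2 fold change (*Rragc*S74N/+ minus *Rragc*+/+) with its SE for each of the 50 genes by pathway (coloured points and bars), with the value without *Rragc*S74N/+ liver 4 as a black cross. The crosses of *Sds* and *Mccc2* lie to the right at 1.74 and 0.81, while the median over all 50 crosses is 0.0018.

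As means over a group, *Rragc*S74N/+ liver 4 was the highest liver in 9 of 9 groups and the genotypes overlapped in each. Differences of the group means ran from −0.056 for proline to 0.55 for serine, glycine and cysteine. The urea cycle group differed by 0.23, phenylalanine and tyrosine by 0.29, histidine by 0.12, tryptophan by 0.087, aminotransferases and glutamate by 0.38, lysine by 0.14 and branched-chain amino acids by 0.24. Without mutant liver 4 these became 0.025, 0.069, −0.017, −0.013, 0.12, −0.13 and 0.10, with −0.13 for proline and 0.31 for serine, glycine and cysteine. No group was tested, since its genes share the same livers.

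**Figure D4:**
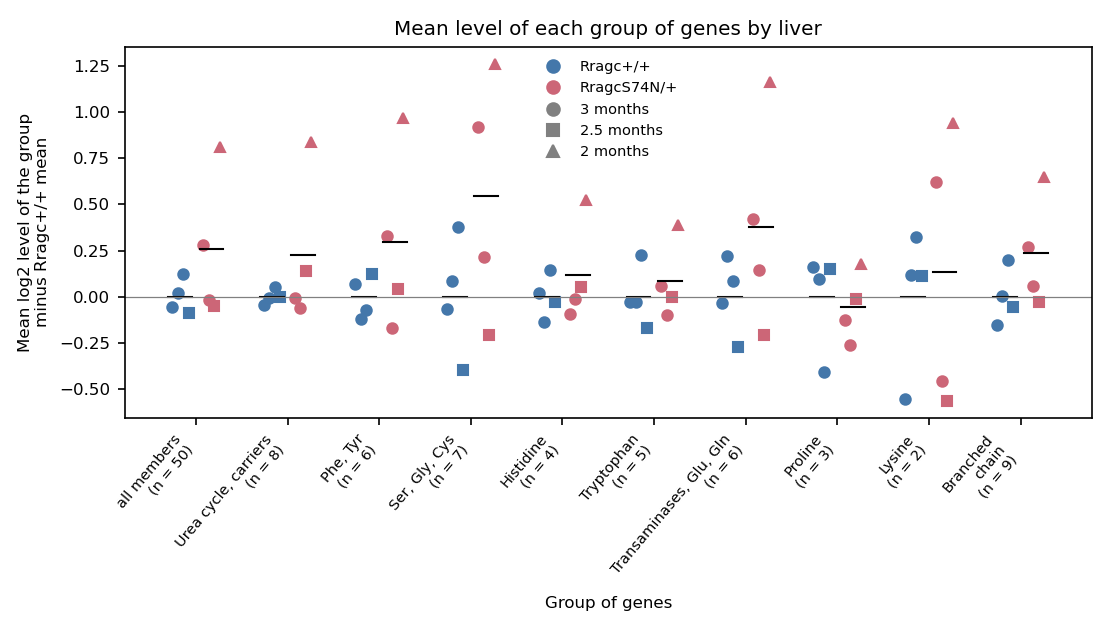
Mean log2(normalized count + 1) over the genes of each group in each liver, minus the mean of the 4 *Rragc*+/+ livers (blue, *Rragc*+/+, red, *Rragc*S74N/+, symbols for age, black lines for genotype means). The red triangle of *Rragc*S74N/+ liver 4 is the highest point in each of the 9 groups, and *Rragc*S74N/+ liver 1 lies above every control in 5 of them, while the genotypes overlap in all 9.

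The 2.5-month-old livers, 1 of each genotype, stood apart in another way. Both 2.5-month-old livers were the lowest of the 8 for 10 of the 50 genes (20%, against 11.9% of all tested genes), *Ass1*, *Amdhd1*, *Kynu*, *Got1*, *Gls2*, *Gldc*, *Amt*, *Pcca*, *Pccb* and *Cdo1*, and the highest for 2 (4.0% against 10.3%). In the same livers the clock gene *Dbp* was highest, at 11.2, 3.74, 11.3 and 57.9 in *Rragc*+/+ livers and 6.43, 4.44, 126 and 4.89 in *Rragc*S74N/+ livers, and *Arntl* was lowest, at 56.9, 82.3, 56.6 and 21.5 in *Rragc*+/+ livers and 120.3, 108, 20.1 and 146 in *Rragc*S74N/+ livers. Over 6 tested clock genes peaking near dusk, the mean log2 level was 6.88 and 7.21 in these livers and 4.90 to 5.91 in the others. Over 4 tested genes peaking near dawn it was 6.69 and 6.58, and 6.90 to 7.50 in the others. *Clock*, *Cry1*, *Nfil3*, *Tef* and *Per2* did not follow their list in both livers, with *Clock*, of the dawn list, highest in *Rragc*+/+ liver 4 at 395. The hour at which each liver was taken was not given in the sources used here, and its part in these levels was not tested. When age entered the fit as a factor, the log2 fold changes were 1.81 for *Sds*, 0.71 for *Got1*, 0.59 for *Kynu* and 0.39 for *Cps1*, again without mutant liver 4 in the estimate.

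Genes known to respond to glucagon, glucocorticoids or fasting were read beside these enzymes. Of 16 such genes listed, 14 were tested and 0 passed at an adjusted p of 0.05 with limma, edgeR or DESeq2. An unadjusted p under 0.05 was found for 4, 4 and 5 of the 14 genes, a larger share than the 5.17%, 5.53% and 6.04% of all tested genes. *Pck1*, phosphoenolpyruvate carboxykinase of gluconeogenesis, read 425, 648, 986 and 802 in *Rragc*+/+ livers and 1999, 823, 849 and 4095 in *Rragc*S74N/+ livers, which gave a log2 fold change of 1.18 ± 0.45 (unadjusted limma p = 0.0207, exact permutation p = 0.114). *Igfbp1*, a secreted binding protein of insulin-like growth factors, read 275, 235, 80.6 and 168 in *Rragc*+/+ livers and 1191, 338, 279 and 2252 in *Rragc*S74N/+ livers, which gave a log2 fold change of 2.04 ± 0.59 (unadjusted limma p = 0.00411, exact permutation p = 0.0286). Without mutant liver 4 these were 0.71 and 1.48. Both were highest in mutant livers 4 and 1, the livers in which *Sds*, *Tat*, *Cps1* and *Gls2* were also highest. Of the 50 genes, 18 (36%) had these as their highest livers, against 13.7% of all tested genes. *Klf15*, *Fkbp5*, *G6pc*, *Ppargc1a* and *Hnf4a* also had mutant livers 4 and 1 as their highest livers. In livers 4 and 1 *Klf15* read 217 and 172 against 38.2 to 90.7 in controls, and *Fkbp5* 88.1 and 57.8 against 7.48 to 38.2. The remaining tested genes of the list did not have these as their highest livers. *Angptl4*, a secreted inhibitor of lipoprotein lipase, read 106, 173, 147 and 81.3 in *Rragc*+/+ livers and 100.1, 240.0, 127 and 18.8 in *Rragc*S74N/+ livers, a log2 difference of -0.47 ± 0.58. *Creb3l3*, a transcription factor of the fasted liver, read 3058, 3623, 2283 and 3305 in *Rragc*+/+ livers and 2404, 2796, 3173 and 1119 in *Rragc*S74N/+ livers, a log2 difference of -0.45 ± 0.30. Both of these were lowest in mutant liver 4. *G6pc*, the glucose-6-phosphatase of gluconeogenesis, and the coactivator gene *Ppargc1a* differed by 0.67 ± 0.35 and 0.49 ± 0.42. *Klf15* and *Fkbp5*, targets of the glucocorticoid receptor, differed by 1.04 ± 0.38 and 1.32 ± 0.59. *Tsc22d3*, a glucocorticoid-responsive gene of the same list, differed by only 0.10 ± 0.35. It read 76.4, 220, 204 and 113 in *Rragc*+/+ livers and 212, 153, 94.7 and 167 in *Rragc*S74N/+ livers, highest in *Rragc*+/+ liver 2. The receptor gene *Nr3c1* differed by 0.21 ± 0.23 and the glucagon receptor gene *Gcgr* by -0.057 ± 0.19. The summed count of the list was 7166 to 8437 in controls and 7774 to 12868 in mutant livers. Whether the mice had fed before the livers were taken was not given in the sources used here, and the part of feeding in these levels was not tested.

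Other enzymes and carriers of the same pathways were taken from a list of 63 genes, of which 58 were in the table and 57 were tested. None was called by limma at an adjusted p of 0.05, nor by edgeR or DESeq2, and the smallest adjusted p with limma was 0.846. At an unadjusted p under 0.05, 1 was higher and 1 was lower with limma, where 2.37% and 2.80% of all tested genes were, and edgeR gave 4 and DESeq2 2 in all (5.53% and 6.04% of all tested genes). The limma count was 13 without *Rragc*S74N/+ liver 3 (15.1% of all tested genes), 6 without *Rragc*+/+ liver 3 (6.79%) and 0 without *Rragc*+/+ liver 1 (3.0%). It was 1 without *Rragc*+/+ liver 4 (3.9% of all) or *Rragc*S74N/+ liver 1 or 4 (3.88% and 2.82%). Their log2 fold changes were above 0 for 31 and below 0 for 26, with a median of 0.052. *Acmsd*, which diverts tryptophan carbon away from NAD synthesis, read 35.4, 70.1, 62.2 and 29.0 in *Rragc*+/+ livers and 101, 57.8, 100.3 and 809 in *Rragc*S74N/+ livers, which gave a log2 fold change of 1.66 ± 0.64 (unadjusted limma p = 0.0224, exact permutation p = 0.0857), or 0.85 without mutant liver 4. *Hsd17b10*, a dehydrogenase of isoleucine breakdown, read 1113, 1234, 1287 and 831 in *Rragc*+/+ livers and 780.4, 860.3, 907 and 731 in *Rragc*S74N/+ livers, which gave a log2 fold change of -0.43 ± 0.20 (unadjusted limma p = 0.0471, exact permutation p = 0.0857). Mutant liver 4 was the highest liver for 17 of these 57 genes (29.8%), against 17% of all tested genes.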

How the data were processed

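RNA from 8 whole mouse livers was made into libraries with a kit that reads the 3′ end of each messenger RNA by oligo-dT priming, so that counts are not scaled by transcript length. The authors checked reads with FastQC 0.11.7, aligned them to GRCm38 with TopHat2 2.0.10, Bowtie 1.0.0 and SAMtools 0.1.19, counted them per gene by strand with HTSeq 0.6.1 and scaled the counts with DESeq (tool names and versions from the submitters' processing notes and the study's methods). What the authors deposited is the resulting signal, namely normalized read counts. All values (100.0%, tolerance 0.001) were whole multiples of a liver's smallest step, so whole reads were recovered, 4313076 to 6632108 per liver, and no molecular identifiers are stated for these libraries. Such reads are not independent molecules.

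Groups came from the labels. Genotype was tested with limma 3.58.1 (R 4.3.3, moderated variances that follow the mean), applied to log2(normalized count + 1) of genes whose mean reached 10, in a model of genotype alone, with p adjusted over these genes by Benjamini-Hochberg at 0.05. The log2 fold changes understate the change of low genes. edgeR 4.0.16 and DESeq2 1.42.0 on the recovered reads were alternatives, as were pseudocounts of 0.1 and 5, no filter, a mean of at least 50, TMM and upper-quartile rescaling, no trend, age as a number or a factor, 3-month-old mice alone, and leaving out each liver. For single genes an exact permutation test, two-sided over 70 labellings, was added. Nothing states more than that livers came from separate mice, so p-values measure the spread between these livers. The scripts were tested on simulated data.

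The 50 genes, their groups and the other lists were chosen with earlier results of these data known. Values in every liver were given for genes with an unadjusted p under 0.05, without overlap, with the largest absolute change or the highest mean of a group, or among the 3 largest spreads within a genotype. That named 18 genes. *Gls2*, *Arg1*, *Gldc*, *Gcsh*, *Glud1* and *Mccc1* were added after their values were seen. Gene positions are from GENCODE on GRCm38 and promoter sequences from RefSeq on GRCm38.p6.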

Additional observations from a re-analysis of the deposited data

Results flagged for a closer look

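In 122 groups of 4 livers (61 measures in each genotype), 9 had 1 liver far from the other 3 by Dixon's test on the log2 scale, where chance flags about 1 in 20 groups, or 6.1 here. *Rragc*S74N/+ liver 4 stood above the other mutant livers for *Ass1* (13.89 against 12.45 to 12.54), *Aldh4a1* (11.23 against 10.68 to 10.77) and *Aass* (10.60 against 9.42 to 9.52). *Rragc*+/+ liver 3 stood above the other controls for *Tat* (8.16 against 6.65 to 6.75) and *Sds* (6.19 against 3.91 to 3.995), and below them in the mean of the proline genes (9.26 against 9.76 to 9.83). *Rragc*+/+ liver 2 was high for *Slc25a13* (11.06 against 10.52 to 10.57) and *Rragc*+/+ liver 4 low for *Afmid* (11.06 against 11.44 to 11.51). *Rragc*S74N/+ liver 3 was low for *Cdo1* (12.67 against 12.97 to 12.996).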

How the results depend on the processing

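None of the 50 genes was called at an adjusted p of 0.05 under any of the 20 alternatives run with limma, edgeR or DESeq2, with smallest adjusted p from 0.256 without *Rragc*S74N/+ liver 3 to 0.9999 without *Rragc*S74N/+ liver 4. The number with an unadjusted p under 0.05 was 3 with limma, 6 with DESeq2 and 7 with edgeR, and from 1 to 11 when 1 liver was left out (1 without *Rragc*+/+ liver 1, 5 without *Rragc*+/+ liver 3 or *Rragc*S74N/+ liver 2, 11 without *Rragc*S74N/+ liver 3). For the neighbouring enzymes this number was 2, against 1 with TMM rescaling, upper-quartile rescaling or limma without the trend, 0 with age as a number and 4 with edgeR. It ran from 0 to 13 when 1 liver was left out, with 0 without *Rragc*+/+ liver 1, 1 without *Rragc*+/+ liver 4, *Rragc*S74N/+ liver 1 or *Rragc*S74N/+ liver 4, 6 without *Rragc*+/+ liver 3 and 13 without *Rragc*S74N/+ liver 3. Of all tested genes, 5.17% had such a p with limma, 5.53% with edgeR and 6.04% with DESeq2, and from 2.82% without *Rragc*S74N/+ liver 4 to 15.1% without *Rragc*S74N/+ liver 3. The median log2 fold change of the 50 genes ran from 0.0018 without *Rragc*S74N/+ liver 4 to 0.18. The cause of these moves was not tested.

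Log2 fold changes near 0 turned in sign in 37 of 599 values over 12 settings and in 41 of 400 values with 1 liver left out, none of them called. In the 3-month-old mice alone the sign turned for *Ass1* (-0.25), *Arg1* (-0.13), *Hal* (-0.13), *Hpd* (-0.30), *Tdo2* (-0.077), *Gpt* (-0.22), *Agxt* (-0.23), *Mccc1* (-0.19), *Csad* (0.017) and *Cdo1* (-0.12). With DESeq2 the sign turned for *Asl* (0.040), *Afmid* (0.00036), *Prodh* (0.020), *Aadat* (0.061) and *Cdo1* (-0.028). With age as a factor, where *Rragc*S74N/+ liver 4 leaves the estimate, it turned for *Ass1* (-0.084), *Arg1* (-0.050), *Hal* (-0.079), *Qdpr* (-0.031), *Hpd* (-0.14), *Gpt* (-0.13), *Agxt* (-0.15), *Mccc1* (-0.26) and *Csad* (0.035). With age as a number the sign turned for *Arg1* (-0.0047), *Hal* (-0.039), *Qdpr* (-0.048), *Hpd* (-0.12), *Gpt* (-0.12), *Agxt* (-0.14) and *Mccc1* (-0.17). With edgeR the sign turned for *Asl* (0.040), *Afmid* (0.00041), *Prodh* (0.019), *Aadat* (0.064) and *Cdo1* (-0.027). With upper-quartile rescaling the sign turned for *Afmid* (0.0034). With 1 liver left out the log2 fold changes ran over 0 for *Ass1* -0.11 to 0.44, *Asl* -0.38 to 0.12, *Arg1* -0.021 to 0.53, *Slc25a13* -0.062 to 0.12, *Hal* -0.070 to 0.21, *Qdpr* -0.064 to 0.22, *Hpd* -0.12 to 0.20, *Afmid* -0.11 to 0.086, *Gpt* -0.12 to 0.11, *Prodh* -0.24 to 0.18, *Agxt* -0.11 to 0.33, *Gcsh* -0.15 to 0.052, *Bckdhb* -0.13 to 0.093, *Aadat* -0.59 to 0.17, *Mccc1* -0.27 to 0.26, *Pcca* -0.016 to 0.49, *Csad* -0.39 to 0.061 and *Cdo1* -0.20 to 0.14. The count from a filter at a mean of at least 50 has no value for *Mccc2*, whose mean is lower. No paired analysis was possible because no label ties a mouse of one genotype to a mouse of the other, and the ages they share entered as a factor or a number instead. With 4 livers a genotype, 21 to 81 whole reads for *Mccc2* and 15 to 1127 for *Sds*, counting error adds to the spread between livers most in such low genes.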
